A study of Mus musculus with 6 samples.

Results

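The 4 miRNAs described here are miR-217-5p (MIMAT0000679), miR-216a-5p (MIMAT0000662), miR-216b-5p (MIMAT0003729) and miR-375-3p (MIMAT0000739), which are typical of the pancreas and were measured in white adipose tissue (WAT). They are 4 of the 707 mature miRNAs counted, and were chosen by their accessions with measured values already known. They were chosen with the levels of all 4 in the control and CIH libraries, and so their differences between the groups, already known. These levels include that of miR-217-5p in the control libraries. Their levels and their differences between the groups are therefore given as a description and were not tested. In the library called control 1, miR-217-5p stood at 4888 CPM (counts divided by the library total and scaled to 1000000) and miR-375-3p at 4572 CPM. In each of the other 5 libraries miR-217-5p was at or below 70.6 CPM, while miR-375-3p was between 30.9 and 1148 CPM. The 3 miRNAs encoded on chromosome 11 shared their high level in control 1, and miR-375-3p differed from them in the other libraries.

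The libraries were made from WAT of male mice lacking apolipoprotein E (ApoE-/-), a protein that clears lipoproteins from the blood. The CIH group was 3 libraries from mice kept under chronic intermittent hypoxia (CIH) for 8 weeks, to model obstructive sleep apnea. In CIH, inhaled oxygen is lowered and restored in short cycles. The control group was 3 libraries. All mice carried the ApoE deficiency, so no group shows these miRNAs in fat of mice with the gene intact. The fat depot, the age of the mice and the number of mice per library are not given in the sources used here.

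The pancreas is made mostly of acinar cells, which secrete digestive enzymes into the gut, and holds islets of endocrine cells, which secrete hormones such as insulin into the blood. MiR-217, miR-216a and miR-216b are known as miRNAs of the acinar cells and are encoded close together in the genome. MiR-375 is known as a miRNA of the islets, where it restrains insulin secretion, and it is also made by endocrine and mucosal cells of other organs, such as the gut and the pituitary. In the mouse, lobes of the pancreas lie within the mesenteric fat.

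The mature sequences are shown because they tell which of these miRNAs could be confused with each other in counting. They are from RefSeq on build GRCm38.p6, 5′ to 3′, with the seed (bases 2 to 8, which pair with target mRNAs) in capitals. A mature sequence was matched for 3 of the 4 miRNAs, and for miR-375 the hairpin is printed with its 5p arm, bases 5 to 26, in capitals.
miR-217-5p: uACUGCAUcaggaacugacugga
miR-216a-5p: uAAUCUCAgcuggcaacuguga
miR-216b-5p: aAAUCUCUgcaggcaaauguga
Mir375 hairpin: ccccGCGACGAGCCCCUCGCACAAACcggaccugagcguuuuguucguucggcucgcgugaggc

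MiR-216a-5p and miR-216b-5p were identical at 18 of 22 bases. Their seeds differed at 1 position, A8U, counted from 1 at the 5′ end with the base of miR-216a-5p first. The seed of miR-217-5p was held by 1 of the 1738 mature miRNAs in the RefSeq table, itself, and the same was true of the seed of miR-216a-5p and of miR-216b-5p. Each of the 3 mature sequences was found in 1 of the 1005 hairpins, so an exact match does not share its reads with another annotated hairpin.

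The hairpins Mir216b (chr11:28746191-28746276), Mir216a (chr11:28757012-28757083) and Mir217 (chr11:28763728-28763835) lie on the plus strand of chromosome 11, within 17645 bases. In GENCODE release M21, Mir216a and Mir217 lie in introns of the long noncoding RNA gene Gm12082, and Mir216b lies 10735 bases upstream of Mir216a, outside that gene. The hairpin Mir216c lies on the opposite strand of Mir216b, and 17 bases of miR-216b-5p are complementary to miR-216c-3p. Whether the counting used the strand is not given in the sources used here, so reads of these overlapping miRNAs may not have been told apart. Mir375 (chr1:74900658-74900721, minus strand) lies on chromosome 1, in no annotated gene, 1350 bases from the nearest gene, Cfap65.

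The totals ran from 636963 to 4783768 counts per library. A count of 0 in a library allows up to 3 counts, which is 0.627 CPM in control 2, the deepest library, and 4.71 CPM in CIH 3, the shallowest. Intervals below are exact 95% Clopper-Pearson intervals and, like this floor, cover counting error only. EdgeR's quasi-likelihood test over the 633 miRNAs with at least 10 summed counts gave 0 miRNAs (0.00%) with an adjusted p-value under 0.05 between CIH and control, 16 with an unadjusted p-value under 0.05, and DESeq2 gave 1 and 37. Without control 3, edgeR gave 118 and 225. In these bulk samples, fewer cells of a type and less RNA per cell cannot be told apart.

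MiR-217-5p, the most abundant of the acinar miRNAs here, was counted 6676, 271 and 56 times in control 1, 2 and 3, and 18, 17 and 32 times in CIH 1, 2 and 3. These are 4888, 56.6 and 70.6 CPM in the control libraries and 11.4, 23.1 and 50.2 CPM in the CIH libraries. Control 1 stood apart, at 69.2 times (95% interval 53.2 to 91.7) the level of control 3, the next highest library. In control 1 it was the 22nd most abundant of the 707 miRNAs, and in the other libraries it ranked between 175 and 359. The other 5 libraries spanned a 6.19-fold range. The interval of the lower of the other controls, control 2 (50.1 to 63.8 CPM), overlapped that of the highest CIH library, CIH 3 (34.4 to 70.9 CPM).

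MiR-216a-5p was counted 124, 20 and 1 times in control 1, 2 and 3, and 1, 2 and 4 times in the CIH libraries, or 90.8, 4.18 and 1.26 CPM and 0.634, 2.71 and 6.28 CPM. Control 1 was again the highest, at 14.5 times (interval 5.51 to 53.9) the level of CIH 3, and the other 2 controls lay within the range of the CIH libraries. MiR-216b-5p was counted 142, 11 and 2 times in the control and 0, 1 and 0 times in the CIH libraries. Its level was 104 CPM in control 1, 2.30 CPM in control 2 and 2.52 CPM in control 3. The CIH libraries were at or below 1 count, which was 1.36 CPM in CIH 2. Of its 155 counts in the control group, 142 were from control 1, and the CIH group held 1 count in all.

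MiR-375-3p, the islet miRNA, was counted 6245, 148 and 613 times in the control and 1497, 847 and 417 times in the CIH libraries. These are 4572, 30.9 and 773 CPM and 949, 1148 and 655 CPM. Control 1 was the highest, at 3.98 times (interval 3.70 to 4.28) the level of CIH 2, and control 2 was the lowest. Control 3 lay within the range of the CIH libraries. Without control 1, its levels still spanned 37.1-fold, because control 2 was far below the other 4 libraries, where it was between 655 and 1148 CPM. It was the 25th most abundant miRNA in control 1 and ranked between 66 and 217 elsewhere.

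**Figure D1:**
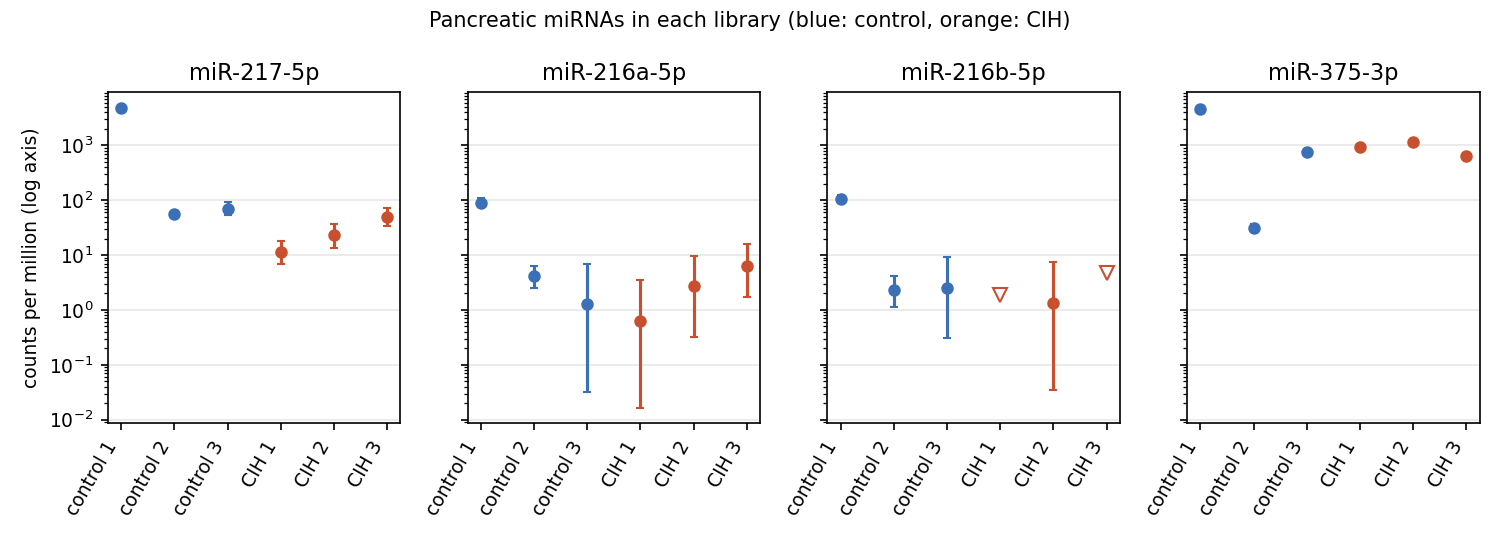
Level of each of the 4 miRNAs in each library, in CPM on a log axis. Points are single libraries (blue, control; orange, CIH), bars are exact 95% intervals for counting error, and open triangles mark libraries with 0 counts at the level of 3 counts. Control 1 is the highest point in all 4 panels, and in the miR-375-3p panel control 2, at 30.9 CPM, is the lowest.

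As a share of the library, the 4 miRNAs together took 0.965% (interval 0.949 to 0.982) of the counts of control 1, 0.00941% of control 2 and 0.0848% of control 3. They took 0.0961%, 0.118% and 0.0711% of the counts of CIH 1, 2 and 3. The mean share over control libraries was 0.353% ± 0.532 (SD, n = 3), and over CIH libraries it was 0.0949% ± 0.0232 (SD, n = 3). Without control 1, the mean of the control group was 0.0471%, below that of the CIH group. Of the controls left, control 3 lay within the range of the CIH libraries and control 2 lay below all of them. The order of the groups thus depended on control 1, and no order is read from the controls left.

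The make-up of the 4 miRNAs was compared within each library, where the library total has no part. MiR-217-5p made up 51.7% (interval 50.8 to 52.5) of the sum of miR-217-5p and miR-375-3p in control 1, and 64.7% (59.9 to 69.3) in control 2. In control 3 it made up 8.37% (6.38 to 10.7). In the CIH libraries it made up 1.19% (0.706 to 1.87), 1.97% (1.15 to 3.13) and 7.13% (4.93 to 9.91). Control 1 and control 2 thus had about as many counts of miR-217-5p as of miR-375-3p, or more. Their levels were unlike. MiR-217-5p was at 4888 CPM in control 1 and 56.6 CPM in control 2. MiR-375-3p was at 4572 CPM, its highest level, in control 1 and at 30.9 CPM, its lowest, in control 2. In the other 4 libraries miR-375-3p had at least 10.9 times the counts of miR-217-5p. These intervals cover counting error only and not the spread between libraries of a group, and the ratios were not tested. In level rather than in ratio, other miRNAs divided control 1 and control 2 from the other libraries. A miRNA among the 5 most abundant had 0.0154% of its CPM summed over the 6 libraries in control 1 and 0.0591% in control 2. Each of the other libraries held between 18.1% and 31.7% of it. Control 1 and control 2 thus differed from the other libraries in miRNAs not described here too. That difference is one of level and is not the same measure as the ratio above.

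Among the 3 miRNAs of chromosome 11, miR-217-5p made up most of the counts in every library, from 85% of 20 counts in CIH 2 to 96.2% (interval 95.7 to 96.6) of 6942 counts in control 1. MiR-216a-5p made up 1.79% (1.49 to 2.13) of the 3 in control 1 and 6.62% (4.09 to 10.04) of 302 counts in control 2, and these intervals did not overlap. In control 3 and the CIH libraries, with 19 to 59 counts for the 3, its intervals overlapped that of control 2, and the interval of CIH 3 (3.11 to 26.1) lay above that of control 1. MiR-216b-5p made up 2.05% (1.73 to 2.41) in control 1 and 3.64% (1.83 to 6.42) in control 2. In CIH 1 its 0 of 19 counts has an interval up to 17.6%, so a change in its part was not detectable at this depth.

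**Figure D2:**
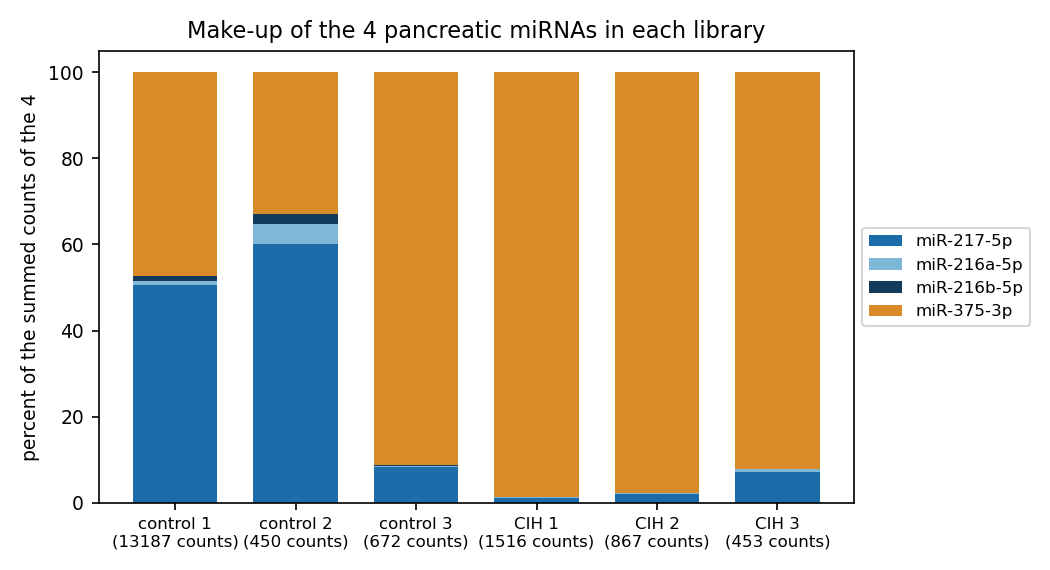
Percent of the summed counts of the 4 miRNAs taken by each, per library, with the summed counts under each bar. MiR-375-3p takes 47.4% and 32.9% in control 1 and control 2 and between 91.2% and 98.7% in the other 4 libraries.

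Over the 6 libraries, the log2 CPM (prior count 2) of miR-217-5p correlated with that of miR-216a-5p at Pearson's r of 0.95, with that of miR-216b-5p at 0.98 and with that of miR-375-3p at 0.45. The 6 points share their library totals, and no test was made. Without control 1 these were 0.61, 0.75 and -0.41 over 5 libraries. The likeness of the acinar miRNAs was thus lower without control 1, where miR-216a-5p and miR-216b-5p had at most 20 counts in a library.

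To show how the 2 groups compare, the fold changes were taken from the fit across all 633 miRNAs, in which all 4 were included. On this scale the counts are normalized by TMM, which corrects the totals for composition, and the factor of control 1, 0.575, was the lowest of the 6. On average, control libraries had 2871 ± 4872 TMM-normalized CPM (SD, n = 3) of miR-217-5p and CIH libraries had 22.5 ± 10.7 (SD, n = 3), a log2 fold change of -6.99 (standard error 2.32). The SD of the control group exceeded its mean. The log2 fold change was -4.46 (standard error 1.92) for miR-216a-5p and -1.73 (standard error 1.62) for miR-375-3p. For miR-216b-5p the fitted value was -7.20 (standard error 2.45), which is no bound on the difference, since the CIH libraries held 1 count in all.

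Leaving out control 1 moved the log2 fold change of miR-217-5p to -1.34 (standard error 0.61) and that of miR-216a-5p to -0.37 (standard error 1.11). It moved that of miR-216b-5p to -2.53 (standard error 1.38), and turned that of miR-375-3p to 1.62 (standard error 1.21). With control 1 left out, miR-375-3p was thus higher in the CIH group in this fit, which then compared control 2 and control 3 with the 3 CIH libraries. Its level was 30.9 CPM in control 2, and 773 CPM in control 3, which lay within the range of the CIH libraries. Leaving out any other single library kept all 4 values below 0.

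**Figure D3:**
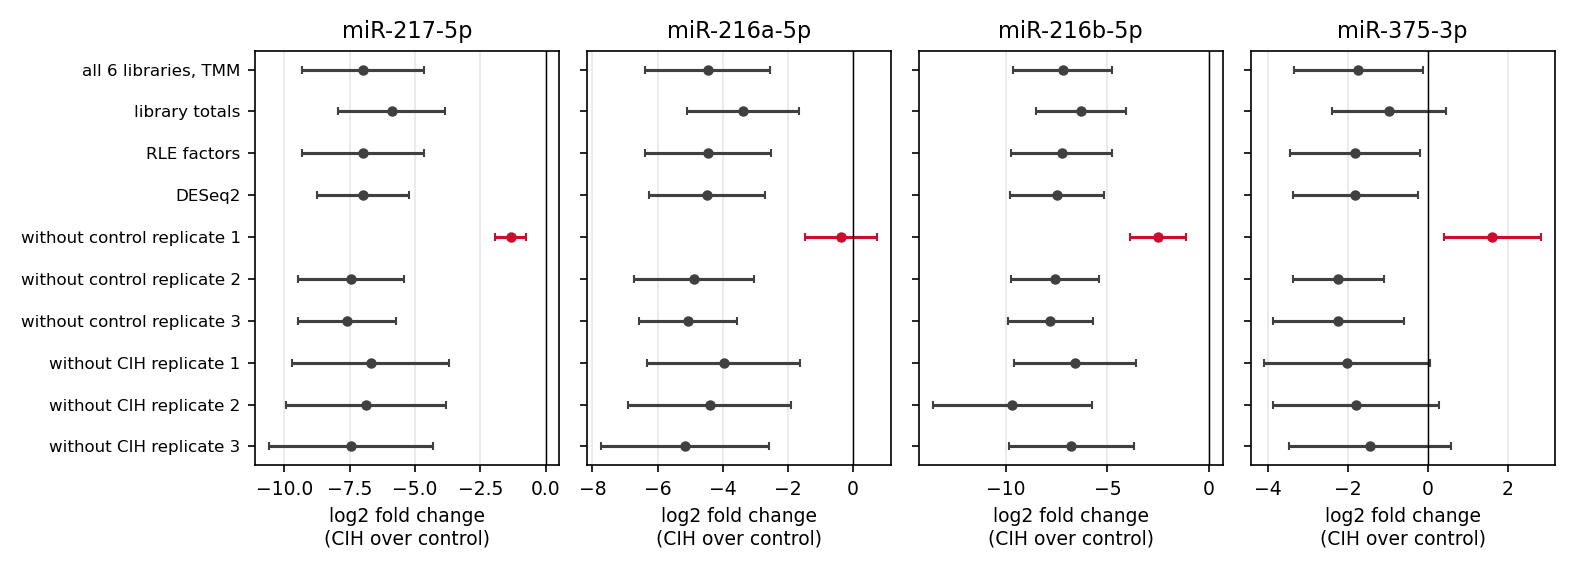
Log2 fold change of each of the 4 miRNAs (CIH over control) with its standard error, for all 6 libraries with TMM, for other normalizations, and with each library left out in turn (red, without control 1). Without control 1 the values lie nearer to 0 for the 3 acinar miRNAs, and miR-375-3p is at 1.62 in place of -1.73.

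The control and CIH libraries did not overlap in TMM-normalized CPM for 2 of the 4, miR-217-5p and miR-216b-5p, both lower in CIH. For miR-216b-5p this takes 0 counts in CIH 1 and CIH 3 as a level of 0, whereas the floor of CIH 3, 4.71 CPM, lies above its level in control 2 and control 3. The groups did not overlap for 51 (8.06%) of the 633 miRNAs, of which 19 were lower and 32 higher in CIH. Since the members were chosen with this contrast known, nothing is read from that count. The same 2 did not overlap with library totals in place of TMM.

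How much of the level of these miRNAs lay in control 1 was described beside the other miRNAs. The members were chosen with these levels known, so a high share does not set them apart. Control 1 held 95.8% of the CPM of miR-217-5p summed over the 6 libraries, 94.4% of that of miR-216b-5p, 85.8% of that of miR-216a-5p and 56.3% of that of miR-375-3p. Of the 633 miRNAs, 15 (2.37%) had at least 80% of their summed CPM in control 1, and 32 (5.06%) had at least 50%. For control 2 these numbers were 3 and 32, for CIH 3 they were 2 and 19, and for the other libraries they were 0 and at most 6. With this threshold, set after the values were seen, the 3 acinar miRNAs were among the 15 and miR-375-3p was not.

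**Figure D4:**
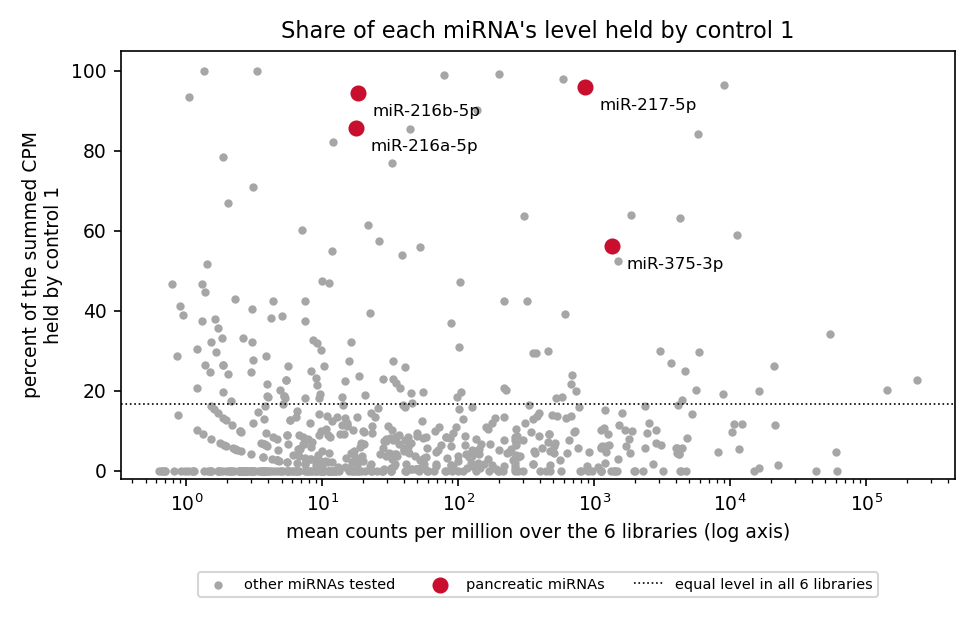
Percent of each miRNA's CPM summed over the 6 libraries that control 1 held, against its mean CPM on a log axis, for the 633 miRNAs tested. The 4 pancreatic miRNAs are in red, at 95.8%, 94.4%, 85.8% and 56.3%, and the dotted line marks an equal level in all 6 libraries.

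Of these 15, 12 had at least 50 counts in all, of which 3 were the acinar miRNAs and 9 were other miRNAs. The 9 others took 8.77% of the counts of control 1 and 0.623% of those of CIH 1, but at most 0.0400% of the counts of any of the remaining 4 libraries. The most abundant of the 9 had 71525 counts in control 1, the next had 39703 and each of the rest had at most 4693. In all 9, CIH 1 was the library with the next highest level. In none of the 3 acinar miRNAs was this so, and in CIH 1 miR-217-5p was at 11.4 CPM, its lowest level. For miR-216a-5p, the 4 counts of CIH 3 (interval 1.71 to 16.1 CPM) and the 1 of CIH 1 (0.0160 to 3.53 CPM) overlapped. For miR-216b-5p, the 2 counts of control 3 (0.305 to 9.11 CPM) and the 0 of CIH 1 (0 to 2.34 CPM) overlapped. For miR-216a-5p and miR-216b-5p the library with the next highest level is therefore not resolved. Outside control 1 some of these levels rest on few counts, such as 3 counts of MIMAT0004188 in CIH 1 and 1 in CIH 3, and no test separated the 9 from the acinar miRNAs. What these 9 miRNAs have in common was not tested, since the accessions are not paired with names here.

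By likeness of pattern, MIMAT0004188 came first among 451 other miRNAs with at least 50 counts, at an r of 0.967 with the mean log2 pattern of the 4 over 6 libraries. Its counts were 636, 6 and 0 in control and 3, 0 and 1 in CIH. MIMAT0017023 came next at an r of 0.939, with counts of 53, 20 and 4 in control and 10, 4 and 7 in CIH. All of the 10 most similar miRNAs were highest in control 1, as were 52 of the 451. The 4 that set the pattern were all highest in control 1, which favours such matches, so nothing is read from this. With Spearman correlation 0 of these 10 were among the most similar, so this order depends on the measure of likeness.

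These counts bear on pancreas carried with the fat only through the miRNAs named here. In control 1 the acinar miRNAs and miR-375-3p were high together. In control 3 and the CIH libraries miR-375-3p was between 655 and 1148 CPM, with miR-217-5p at 11.4 to 70.6 CPM. The part of pancreatic tissue, or of other tissue that makes miR-375, in these levels was not tested. Markers of fat and of other tissues were not checked, since the other accessions are not paired with names.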

How the data were processed

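Small RNA of WAT from control and CIH mice, 3 libraries per group, was sequenced on an Illumina instrument. The authors deposited raw read counts per mature miRNA, 1 column per library, listed by miRBase accession. Trimming, aligner, miRNA database release, genome build and the rule for reads matching more than 1 miRNA are not given in the sources used here, and can move reads between similar miRNAs. Libraries were assigned to groups by their labels, and the counts of every pair differed by more than counting error. Nothing states how each library relates to separate mice or extractions, so the spread may be partly technical.

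The 4 miRNAs and the lists were chosen with earlier results of these data known. Levels were computed as CPM of the library total. Fold changes came from edgeR 4.0.16 (TMM, quasi-likelihood, group as the only term, at least 10 summed counts) in R 4.3.3, and p-values were adjusted by the Benjamini-Hochberg method. The script was tested on simulated counts with a smaller spread between replicates than the 4 miRNAs showed here. DESeq2 1.42.0, other normalizations, other filters, the replicate number as a block and each library left out were the alternatives. Likeness was Pearson's r of log2 CPM (prior count 2). The rule for named miRNAs took the 4, the 10 most similar and context lists by name. Because accessions are not paired with names here, 2 of the 10 are given, and the context lists and other arms of the hairpins were not analysed. Sequences are from RefSeq (GRCm38.p6), and genes from GENCODE release M21. Python 3.11.15, numpy 2.4.6, scipy 1.17.1, pandas 2.3.3 and matplotlib 3.10.9 were used.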

Additional observations from a re-analysis of the deposited data

How the results depend on the processing

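The log2 fold changes of the 4 miRNAs kept their sign with library totals, RLE factors, DESeq2 and no filter, and moved by less than the spread between replicates. That spread, the SD of log2 CPM within groups, is a wide measure because it includes control 1. For miR-375-3p it was 2.59, more than the size of its fold change, -1.73. The largest moves came with library totals, to -5.89 for miR-217-5p, -3.38 for miR-216a-5p, -6.31 for miR-216b-5p and -0.97 for miR-375-3p. MiR-216a-5p and miR-216b-5p have no value with at least 10 counts in every library, because that filter removes them. Over the fits without 1 library, the log2 fold change ran from -7.59 to -1.34 for miR-217-5p, from -5.16 to -0.37 for miR-216a-5p, from -9.67 to -2.53 for miR-216b-5p and from -2.24 to 1.62 for miR-375-3p. The values nearest to 0, and the reversed value of miR-375-3p, came without control 1, and that of -9.67 without CIH 2, which held the 1 count of miR-216b-5p in the CIH group.

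Same-numbered libraries deviated from their group means with correlations of 0.299, -0.146 and 0.00482, and these numbers were not taken as pairs. With the replicate block, the log2 fold change was -2.82 for miR-217-5p, -1.84 for miR-216a-5p, -5.53 for miR-216b-5p and 0.16 for miR-375-3p, which was reversed, and 3 miRNAs of all 633 met an unadjusted p-value under 0.05 with a 1.5-fold change, against 16 without it. The cause was not tested. DESeq2 gave 37 by these criteria and 1 miRNA by the adjusted p-value. With each library left out, the numbers ran from 1 (without CIH 3) to 225 (without control 3), with 6 without CIH 1 and 6 without CIH 2, and those by the adjusted p-value from 0 to 118.

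The mean share of the 4 miRNAs was 0.906% in control and 0.214% in CIH when the 5 most abundant miRNAs were left out of the denominator, which is then smaller. With each library left out it ran from 0.0471% to 0.525% in control and from 0.0836% to 0.107% in CIH. Of the 10 most similar miRNAs, 9 were kept with a prior count of 0.5, 7 with at least 200 summed counts and 0 with Spearman correlation. With the pattern of the 3 acinar miRNAs alone, an alternative chosen after seeing the data, 6 were kept. Counts in single digits limit miR-216a-5p and miR-216b-5p in control 3 and the CIH libraries.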
